A study of Arabidopsis thaliana with 6 samples.

Results

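Chromatin is built from nucleosomes, in which DNA is wrapped around an octamer of the core histones H2A, H2B, H3 and H4. ATP-driven remodelling complexes slide, evict or exchange nucleosomes, and histone deacetylases remove acetyl groups from histone tails, a change usually linked to lower transcription. In a growing leaf most core histone transcripts are made when cells replicate their DNA, so their level is highest where cells still divide.

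The genes described here were chosen by name, from a list of 26 symbol prefixes of chromatin gene families, not by their values, although earlier results of these data were known. Of 13356 Arabidopsis genes that had a probe set of their own in the gene table, 16 carried such a symbol, through 6 of the 26 prefixes. They comprised 9 genes of remodelling complexes (CHR17, CHR18, CHR23, CHR24, CHR34, CHR40, CHR42, CHB3 and CHC1), 5 core histone genes (HTB1, HTB2, HTB4, HTB11 and HTR12) and 2 histone deacetylase genes (HDA7 and HDA15). Histone acetyltransferases, methyltransferases and demethylases, DNA methylation genes and bromodomain readers gave no gene by this rule and were not analysed here as members. The set is therefore one of remodelling and core histone genes with a pair of deacetylases, rather than of histone modifiers at large. Each gene had 1 probe set, and all 16 matched a locus in the RefSeq gene table.

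Transcript levels were read on 6 single-colour Affymetrix arrays, 3 of wild-type Arabidopsis thaliana of the Col-0 accession and 3 of sto2 null mutants, labelled as biological replicates. The RNA came from expanding rosette leaves, numbers 3 to 6, of 3-week-old plants raised in soil with 16 h of light and 8 h of dark, at 22 and 18 °C, and no plant received a further treatment. The question put to these samples was which genes act downstream of STO2. The labels name no locus for STO2, and its own transcript was not examined.

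Signals are linear intensity values, and differences are given as sto2 minus wild type on the log2(signal + 16) scale, with the standard error (SE) of the limma fit. That scale understates changes of dim transcripts. A reading was called above background when it exceeded the highest of 27 bacterial control probe sets on its own array, which lay between 9.5 and 18.4. Array medians were between 37 and 38.6. Of 7 listed markers of leaf mesophyll, 2 were found by name among genes with a probe set of their own, LHCB4.1 and LHCB4.2. They summed to between 9291.6 and 9885.6 in wild type and between 9510.3 and 9519.2 in sto2. The sum hides opposite directions. The sto2 mean was 104% of wild type for LHCB4.1 and 92.4% for LHCB4.2, whose groups did not overlap. The shoot apex markers CLV3 and UFO were above background on 0 arrays. No measured marker of any cell type had a limma adjusted p under 0.05. The 3′ over 5′ signal ratio of actin, a measure of RNA integrity, was 2.57 ± 0.06 on the wild-type arrays against 2.05 ± 0.25 on those of sto2 (log2, mean ± SD, n = 3 arrays each). Its part in the results below was not tested.

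No chromatin gene passed the threshold between sto2 and wild type leaves. Among the 16 genes, 0 had an adjusted p under 0.05 in limma, against 0.127% of the 22746 probe sets tested. At an unadjusted p under 0.05 there was 1 gene, CHR40, or 6.25% of the 16, beside 14.1% of all probe sets. The groups failed to overlap for 1 gene as well, HTR12, beside 19.2% of all probe sets. In 9 genes the sto2 mean was the higher and in 7 the lower, where 47.8% of all probe sets had the higher and 52.2% the lower mean in sto2. The median log2 difference was 0.0201 over the 16 genes and -0.0081 over all probe sets. With 16 genes these counts of 0 and 1 do not set the group apart from the whole array.

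Of the 16 genes, 11 read above background on all 6 arrays, 2 on some arrays and 3 on none. In the plot of signal by gene and array, CHR24 is the 1 gene of the 11 with readings inside the band of controls, at 17.6 and 16.6, each above the control of its own array. For the 11 the highest array exceeded the lowest by 1.201-fold, in HDA15, up to 1.73-fold, in CHR18.

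**Figure D1:**
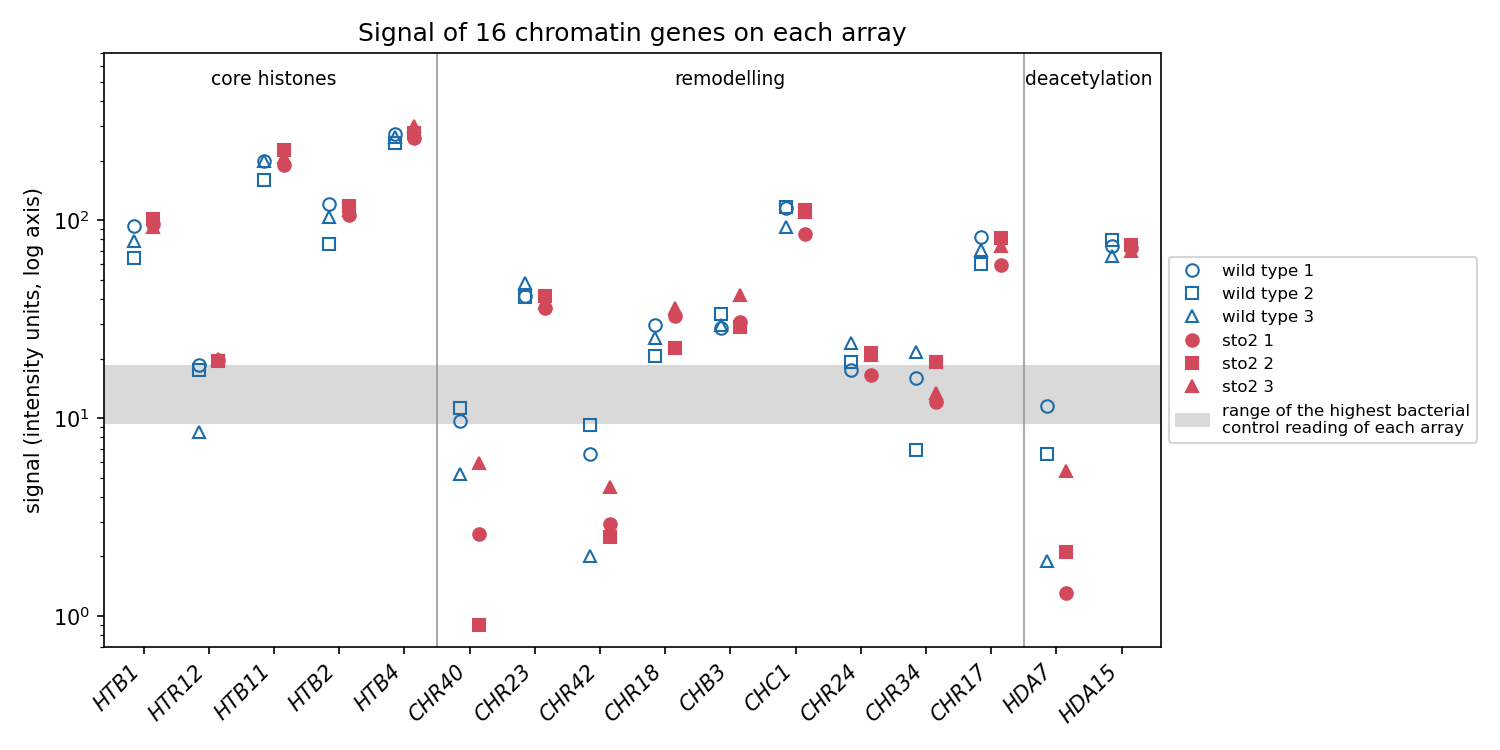
Signal of the 16 chromatin genes on each array (log axis, intensity units), with wild type in open blue and sto2 in filled red symbols and 1 symbol shape per replicate number. The grey band spans the highest bacterial control reading of the 6 arrays, from 9.5 to 18.4; CHR40, CHR42 and HDA7 never exceed the highest control of the same array, and wild type and sto2 overlap in every gene but HTR12.

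The core histone genes all had higher means in sto2, and none of the 5 passed the test. Their median log2 difference was 0.17. HTB1, HTB2, HTB4 and HTB11 encode H2B, the partner of H2A in the nucleosome, and HTR12 encodes CENH3, the H3 variant that marks centromeres.

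HTB1 (AT1G07790) read 94.0, 64.3 and 78.5 on wild-type arrays 1, 2 and 3 and 95.3, 101.9 and 92.9 on the sto2 arrays. Wild-type array 1 lay inside the sto2 range, so the groups overlapped, and the lowest reading was wild-type array 2. The mean went from 78.9 ± 14.9 to 96.7 ± 4.66 (SD, n = 3 arrays each), a log2 difference of 0.26 ± 0.12 (SE; limma adjusted p = 0.404). The 95% interval of that difference ran from -0.03 to 0.55.

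HTB11 (AT3G46030) read 199.6, 159.9 and 199.5 in wild type and 190.7, 225.6 and 209.3 in sto2. Again the groups overlapped and wild-type array 2 was the lowest of the 6. They differed by 0.15 ± 0.11 on the log2 scale (adjusted p = 0.592).

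For HTB2 (AT5G22880) the wild-type signals were 121.1, 75.5 and 103.4 and the sto2 signals 106.6, 118 and 112.8. Here wild type held both the highest reading, on array 1, and the lowest, on array 2, and the sto2 arrays lay between them. On the log2 scale sto2 minus wild type was 0.17 ± 0.15 (adjusted p = 0.681).

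HTB4 (AT5G59910) gave 272.5, 246.7 and 262.9 in wild type against 259.8, 274.5 and 299.5 in sto2. Its highest reading was 1.214 times its lowest, the smallest such ratio of the 4 H2B genes, and wild-type array 2 was again lowest. A log2 difference of 0.09 ± 0.08 resulted (adjusted p = 0.708).

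The 4 H2B genes thus shared their lowest array, wild type replicate 2, which was the lowest of the 6 arrays for 17.5% of all probe sets. The 4 mean log2 signals deviated on that array by -0.29 on average from each gene's mean over 6 arrays, against 0.0113 for all probe sets there. Across the other 5 arrays the same average ran from -0.04, on wild-type array 3, to 0.14, on sto2 array 2. Without wild type replicate 2 the log2 differences shrank to 0.14 for HTB1, 0.06 for HTB11, 0.0049 for HTB2 and 0.05 for HTB4, with adjusted p from 0.628 to 0.995. Other arrays moved single genes as well. HTB2 had a difference of 0.297 without wild type replicate 1, HTB11 0.10 without sto2 replicate 2, and HTB4 0.13 and 0.03 without sto2 replicates 1 and 3. Leaving out wild type replicate 2 was the only one of the 6 omissions that lowered all 4 H2B differences by over 1.5 times. H2B proteins of Arabidopsis are closely alike. All 16 probe sets have the plain name that Affymetrix gives to probes designed for 1 transcript, and whether the H2B probes also bind each other's transcripts was not tested.

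Genes of cell division were read beside the histones, since in these bulk leaf samples fewer dividing cells and less histone RNA per cell cannot be told apart. Of 84 listed symbols, 5 matched a gene with a probe set of its own in the gene table. A gene whose symbol in that table holds a semicolon was read as several genes and could not match. The cyclin symbols on the list are written with one, and no cyclin gene was examined. In limma 0 of the 5 matched genes passed. None had an unadjusted p under 0.05 either, beside 14.1% of all probe sets. PRL, which encodes the replicative helicase subunit MCM7, read 97.2, 70.7 and 77.3 in wild type and 79.7, 107.6 and 82.4 in sto2 (log2 difference 0.12 ± 0.14, adjusted p = 0.785). Its lowest array was also wild type replicate 2.

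The Aurora kinase gene AUR3 read 24.4, 12.3 and 14.8 against 22.2, 21.5 and 27.1, and AUR2 read 30.5, 15.4 and 22.9 against 21.4, 24.1 and 24.3. Both were lowest on wild-type array 2, where each lay below the controls. AUR1, another mitotic kinase gene, read 70.3, 60.5 and 62.4 against 49.8, 65.5 and 58.6 and had its lowest reading on sto2 array 1. SIM, which encodes an inhibitor of cyclin-dependent kinases, read 77.4, 96.7 and 98 in wild type and 87.2, 73.5 and 62.1 in sto2, with the second highest reading on wild-type array 2 (log2 difference -0.24 ± 0.13, adjusted p = 0.459).

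Summed over all 5 genes, the signal was 299.8, 255.6 and 275.4 in wild type and 260.3, 292.2 and 254.5 in sto2, lowest on sto2 array 3 and almost as low on wild-type array 2. Leaving out SIM, an inhibitor of division that read high on wild-type array 2, moved the lowest sum to that array. The sums were then 222.4, 158.9 and 177.4 against 173.1, 218.7 and 192.4. A list without SIM was not planned. Dropping a gene that read high on wild-type array 2 lowers that array's sum by construction. No conclusion on dividing cells is drawn from these sums. The histone chaperone gene ASF1B, which serves new nucleosomes behind the replication fork, also read lowest on wild-type array 2, at 100.6, 59.4 and 70.6 in wild type against 81.2, 104.6 and 69.6 in sto2. Its log2 difference went from 0.13 to -0.0054 without wild type replicate 2. ASF1B was picked with its values known. Among the other chromatin genes described below, HON4 was also lowest on wild-type array 2, while HIS1-3, BSH and INO80 were highest there. SGA2 read 111.4, 137.6 and 99.9 in wild type and 142.3, 118.7 and 120.7 in sto2. By symbol it is the counterpart of ASF1B, which was listed as SGA1. It went the other way, with its highest wild-type reading on array 2. The log2 difference of SGA2 went from 0.12 to 0.23 without wild type replicate 2. The plot of deviations by array sets the H2B genes beside the cell division genes, and whether the number of dividing cells differed between samples was not tested.

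**Figure D2:**
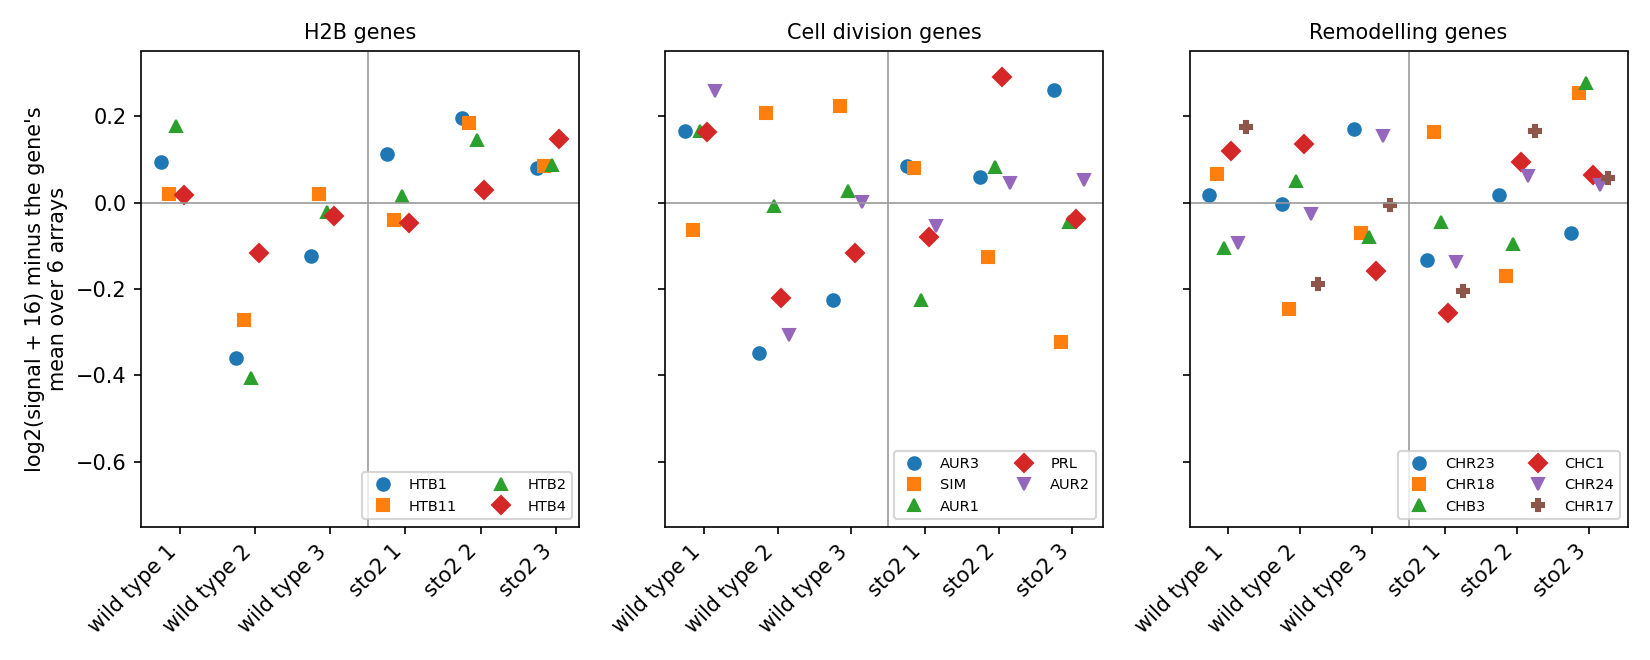
Deviation of log2(signal + 16) from each gene's own mean over 6 arrays, for the 4 H2B genes, the 5 measured cell division genes and the 6 remodelling genes above background on all arrays, with 1 point per gene and array. All 4 H2B genes are at their lowest on wild type replicate 2, as are PRL, AUR2 and AUR3, whereas 4 of the 6 remodelling genes are at their lowest on sto2 replicate 1.

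HTR12 (AT1G01370), the centromeric histone gene, read 18.5, 17.5 and 8.5 in wild type and 19.6, 19.5 and 20 in sto2. The 3 sto2 arrays lay close together and above every wild-type array, and for higher readings in sto2 such separation held in 9.01% of all probe sets. Only 1 of the 3 wild-type readings exceeded the bacterial controls, against 3 of 3 in sto2. The log2 difference was 0.23 ± 0.14 (adjusted p = 0.512), and without wild type replicate 3 it was 0.0705.

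Remodelling genes were split in direction, with 4 higher and 5 lower means in sto2, and none of the 9 passed. Their median log2 difference was -0.0230. Of the 6 that read above background on all arrays, 4 (CHR17, CHR23, CHR24 and CHC1) had their lowest reading on sto2 replicate 1, which was the lowest array for 13.9% of all probe sets, and without it the median of the 9 genes was 0.0458. The CHR genes encode ATPases of the SNF2 family, the motor subunits of remodelling complexes, while CHB3 and CHC1 encode companion subunits of SWI/SNF complexes.

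CHR23 (AT5G19310), an ATPase of the SWI/SNF type known from work on shoot growth and embryo patterning, read 41.6, 40.8 and 48 in wild type and 35.9, 41.6 and 38.2 in sto2. One sto2 array equalled wild-type array 1, so the groups overlapped. The log2 difference was -0.12 ± 0.08 (adjusted p = 0.566). It lay between -0.17 and -0.07 over the 17 alternative fits, some of which cannot change a difference.

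CHB3 (AT4G34430), also named SWI3D, encodes a scaffold subunit of the same complexes. It read 28.6, 33.7 and 29.4 in wild type against 30.5, 28.9 and 42.1 in sto2. The sto2 mean was raised by array 3 alone, and the log2 difference of 0.09 ± 0.12 (adjusted p = 0.798) was -0.0257 without that array. A second probe set that pairs CHB3 with a neighbouring gene was left out, since it does not stand for 1 gene.

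CHC1 (AT5G14170) encodes a BAF60-type subunit. Its wild-type signals were 114.8, 116.1 and 91.9 and its sto2 signals 84.8, 112.4 and 109.7. Each group held 1 low and 2 high arrays, and the log2 difference was -0.07 ± 0.13 (adjusted p = 0.880).

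CHR17 (AT5G18620), an ISWI-type ATPase that spaces nucleosomes along gene bodies, read 81.9, 60.2 and 70.4 against 59.3, 81.4 and 74.3. Both groups covered almost the same range, and the log2 difference was 0.0131 ± 0.13 (adjusted p = 0.982), with a 95% interval from -0.30 to 0.33. That was the largest p among the 16 genes.

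CHR18 (AT1G48310) read 29.6, 20.7 and 25.5 in wild type and 32.8, 22.7 and 35.9 in sto2. Replicates 2 of both groups were the low ones, and the log2 difference was 0.17 ± 0.14 (adjusted p = 0.650). CHR24 (AT5G63950), listed as a relative of the repair ATPase ERCC6, read 17.6, 19.2 and 23.9 against 16.6, 21.4 and 20.9, only a little above the controls, with a log2 difference of -0.0230 ± 0.10 (adjusted p = 0.956).

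CHR34 (AT2G21450) crossed the background level within both groups. It read 16, 6.9 and 21.5 in wild type and 12.1, 19.2 and 13.4 in sto2, above the controls on 2 wild-type arrays and 1 sto2 array. Its log2 difference of 0.0272 had an SE of 0.19, the largest of the 16 genes.

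CHR40 and CHR42 encode ATPases of the CLASSY family, which direct RNA polymerase IV to sites of RNA-directed DNA methylation. CHR40 (AT3G24340) read 9.7, 11.2 and 5.2 in wild type and 2.6, 0.9 and 5.9 in sto2. All 6 readings lay at or below the controls of their arrays, so no fold is given, and the groups overlapped through wild-type array 3 and sto2 array 3. The log2 difference was -0.37 ± 0.14, with an unadjusted limma p of 0.0299 and an adjusted p of 0.297. CHR42 (AT5G20420) read 6.6, 9.2 and 2 against 2.9, 2.5 and 4.5, never above the controls (log2 difference -0.17 ± 0.13, adjusted p = 0.621). A related gene whose table symbol is in lower case, chr31 (AT1G05490), never exceeded them either, at 5.5, 4.1 and 1.4 in wild type and 2.7, 0.4 and 2.1 in sto2. At this sensitivity the leaf signal of these 3 genes was not separable from background in either genotype.

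The deacetylase genes differed in how well they were measured. HDA15 (AT3G18520), a class II enzyme known to work with phytochrome-interacting factors on light-responsive genes in seedlings, read 74.2, 79 and 65.8 in wild type and 72.1, 74.8 and 70 in sto2. The sto2 arrays lay within the wild-type range. The log2 difference was -0.0090 ± 0.08 (adjusted p = 0.978), and its 95% interval ran from -0.20 to 0.19. HDA7 (AT5G35600), an RPD3-type gene known for its role in the embryo sac, read 11.5, 6.6 and 1.9 against 1.3, 2.1 and 5.4, above the controls on 0 of 6 arrays (adjusted p = 0.573).

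**Figure D3:**
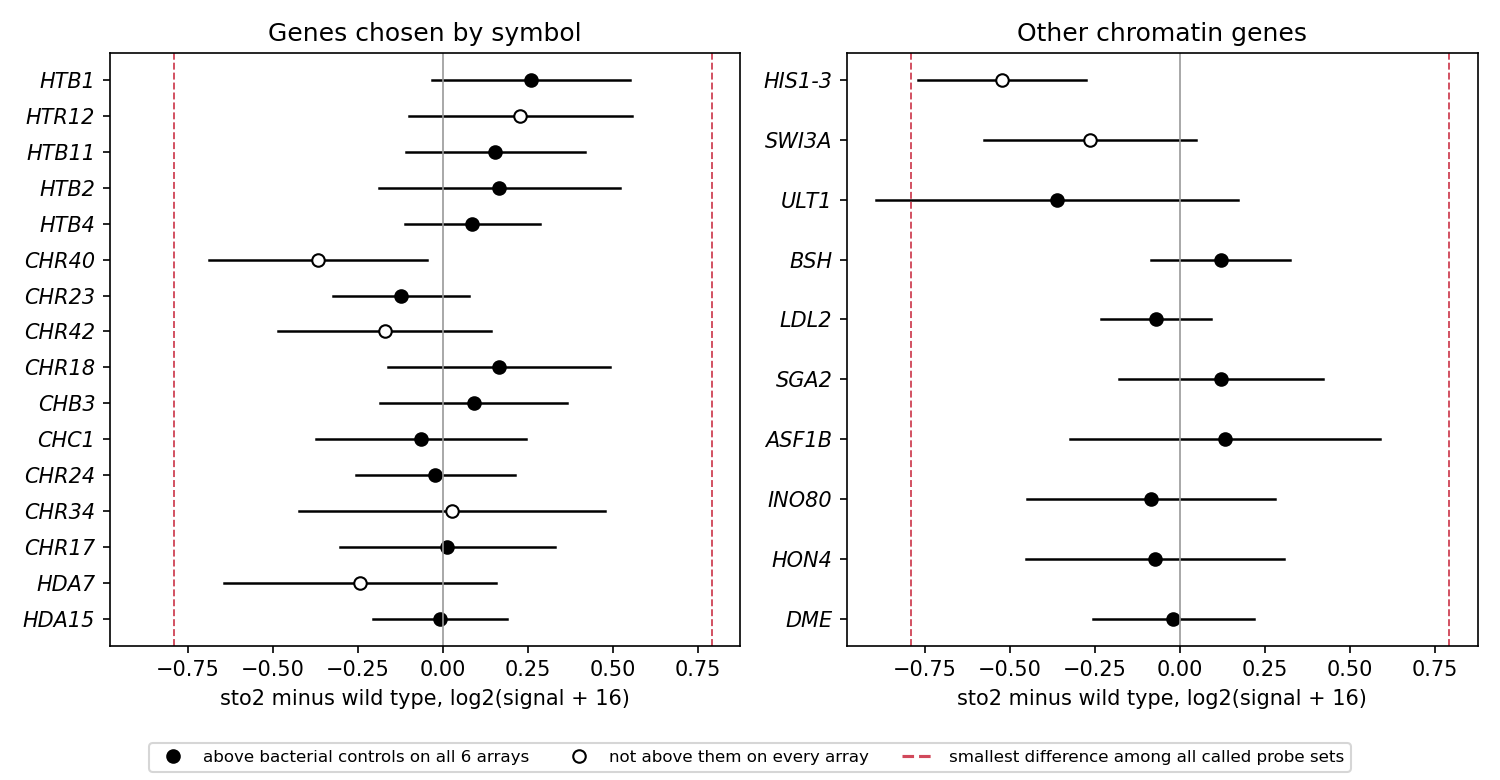
Log2 difference, sto2 minus wild type, on the log2(signal + 16) scale with the 95% interval of the limma fit, for the 16 genes chosen by symbol (left) and 10 further chromatin genes (right). Open points mark genes that were not above the bacterial controls on every array. The dashed lines at 0.79 on either side of 0 mark the smallest difference among the 29 probe sets that passed on the array. The intervals of all 16 genes end inside them, but for CHR40, CHR42 and HDA7 a fall of that size cannot appear on this scale.

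Differences of the size that passed elsewhere on the array lay outside the intervals of the 11 genes above background, as the plot of differences shows. The smallest difference among the 29 probe sets that passed was 0.79 in size, and for the 11 genes above background the farthest interval bound was 0.55, that of HTB1. For these 11 genes, changes within a gene's own interval cannot be told apart from none with 3 arrays a group. For the 5 genes not above background on every array the interval holds on the log2(signal + 16) scale only. The wild-type means of CHR40, CHR42 and HDA7 were 8.7, 5.93 and 6.67. From such means a fall of 0.79 cannot appear on that scale, so the comparison says nothing on a fall in these genes.

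Other chromatin genes, taken from a separate list of 127 symbols, were named on 10 probe sets, and 0 of the 10 passed in limma. An unadjusted limma p under 0.05 was seen for 1 of them, beside 14.1% of all probe sets. Their median log2 difference was -0.07, with 3 means higher and 7 lower in sto2. Groups did not overlap for 1 of the 10, beside 19.2% of all probe sets.

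HIS1-3 (AT2G18050), a linker histone gene known to respond to drought, was that gene and had the smallest p of the list. It read 23.9, 30 and 26.1 in wild type and 17, 13.4 and 10.8 in sto2. All 3 sto2 arrays lay below all 3 wild-type arrays, a separation towards lower readings that held in 10.2% of all probe sets. Means were 26.7 ± 3.09 for wild type and 13.7 ± 3.11 for sto2, a log2 difference of -0.52 ± 0.10 (adjusted p = 0.118). On sto2 array 3 the reading fell below the bacterial controls. Over 16 alternative fits the adjusted p ran from 0.0679 to 0.355.

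SWI3A (AT2G47620), a SWI/SNF scaffold gene like CHB3, read 28.1, 20.9 and 26.8 against 19.7, 22.8 and 13 (log2 difference -0.26 ± 0.13, adjusted p = 0.422). ULT1 (AT4G28190), which encodes a trithorax-group factor that limits shoot meristem size, read 105.8, 52.9 and 66.4 against 42.2, 65 and 52.9 (-0.36 ± 0.22, adjusted p = 0.522). Array 1 of wild type stood far above the other 5 arrays. BSH (AT3G17590), the SNF5-type core subunit gene, read 78.5, 96.7 and 85 in wild type and 95.3, 96.3 and 94.4 in sto2 (0.12 ± 0.09, adjusted p = 0.591). The other measured genes were LDL2, SGA2, ASF1B, INO80, HON4 and DME, with log2 differences from -0.08 to 0.13 and adjusted p from 0.702 to 0.963.

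A search of RefSeq names for the same prefixes added 5 genes, chosen after the values were seen. These were SWI3A, chr31, ATRX, ETL1 and the demethylase gene AT3G45880, and none passed. ETL1 (AT2G02090), listed as the SNF2-type ATPase CHR19, read 85.4, 79 and 78 in wild type and 100.1, 89.1 and 98.4 in sto2. Every sto2 array exceeded every wild-type array, as held in 9.01% of all probe sets. The log2 difference of 0.21 ± 0.08 had a limma adjusted p of 0.303. ATRX (AT1G08600), the gene of a remodeller that helps to place histone H3.3, read 30.1, 25.7 and 34 against 29.9, 29.8 and 32 (0.0234 ± 0.09, adjusted p = 0.949). AT3G45880, listed as JMJ32, had a log2 difference of -0.12 ± 0.11 (adjusted p = 0.672) and was above the controls on 4 of the 6 arrays.

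None of the 16 genes lay directly beside another. The RefSeq table places 8 of them on chromosome 5, 3 each on chromosomes 1 and 3, and 1 each on chromosomes 2 and 4. The nearest pair, CHR17 and CHR23, had 79 protein-coding genes between them. They were part of a run on chromosome 5 of CHC1, CHR17, CHR23, CHR42 and HTB2, with 471, 79, 119 and 187 such genes between. Whether chromosome 5 holds more members than its share of all genes was not tested.

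Directions held for some genes across settings and not for others, as the plot of settings shows. HTB1, HTB2, HTB4 and HTB11 were higher in sto2 and CHR23 lower in all 17 alternative fits, and HTR12 and CHR18 were higher in the 16 that kept them, although none passed. CHR40, CHR42 and HDA7 were lower in the 15 fits that kept them, at signals no higher than the controls. The other 6 genes changed sign in at least 1 fit. Filters on probe sets, averaged probe sets, an intensity trend and a replicate block cannot change the difference of these genes. Those fits are in the counts but say nothing on direction.

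**Figure D4:**
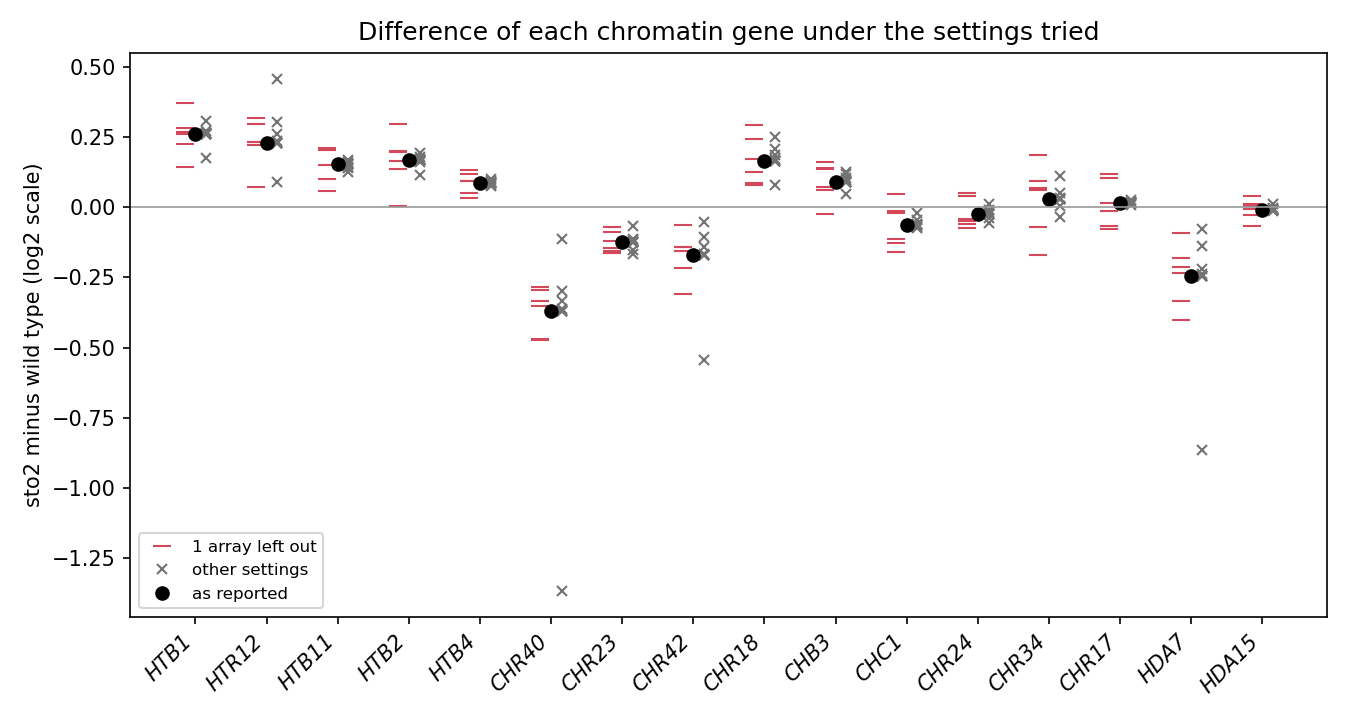
Log2 difference, sto2 minus wild type, of each chromatin gene as reported (black) and under each alternative fit that could be computed for it, with fits that leave out 1 array in red bars and other settings in grey crosses. The 3 grey crosses farthest below 0, for CHR40, CHR42 and HDA7, come from a pseudocount of 1, and all 3 genes read at or below the bacterial controls.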

How the data were processed

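The deposited values were linear probe set signal intensity values between 0 and 6616, and the way probes were summarised is not stated there. Each array had the same 2% trimmed mean, as 1 scaling factor per array would give. Medians differed by under 0.1 (log2), and no further normalization was applied. Labelling and scanning were done by an Affymetrix service provider, per the labels' protocols.

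Of 22810 probe sets, 64 controls were left out. The gene table gave 1 gene for 13513 probe sets and several for 503, and 8730 were unlisted. Gene symbols were split at semicolons, so a symbol that itself holds one counted as several genes. Members were named through that table and a RefSeq table of assembly TAIR10.1, and where a gene had several probe sets the brightest was used. log2(signal + 16) was fitted with limma 3.58.1 in R 4.3.3 (lmFit, eBayes, 2-sided) on all 22746 probe sets, with Benjamini-Hochberg adjustment and a threshold of 0.05. Members, lists, the control level and tests were chosen with earlier results of these data known. The plan was to name the members with the smallest p and the brightest member of each class, and of each other list the 4 smallest p. The text names every member instead. ASF1B, AUR2 and the genes found by RefSeq names were added with their values known. The symbol FDH, which matched a different gene from the marker meant, was dropped. The procedure was tested on simulated data. Alternatives were other normalizations, filters on dim probe sets, an intensity trend, array weights, pseudocounts of 1 and 64, a replicate block, averaging the probe sets of a gene and leaving out each array.

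The deviations of same-numbered arrays from their group means correlated at -0.235, -0.136 and 0.0734 over all probe sets. Those of arrays with unlike numbers correlated at -0.184 to 0.269. These values show no pairing by replicate number, but with 3 arrays a group they cannot exclude it.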

Additional observations from a re-analysis of the deposited data

How the results depend on the processing

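No chromatin, other chromatin or cell division gene passed in any of the 17 alternative fits that tested it. The filter on the dimmest 30% tested 13 of the 16 chromatin genes, and that on the dimmest 50% tested 8, with 7 of the 10 other chromatin and 3 of the 5 cell division genes. Over all probe sets the number of calls ran from 2, with the replicate block, to 227, without the dimmest 50%, against 29. With the replicate block 0 chromatin genes passed, and no pairing by replicate number was seen. Genes with groups that do not overlap numbered 2 with median centring, 0 without the dimmest 50% (HTR12 is dropped by that filter), 2 after adding genes found by RefSeq names, and 1 to 5 with 1 array left out, where fewer arrays overlap less. The median over the 16 genes was 0.0201, and -0.0443 to 0.11 with 1 array left out. The deacetylase median was -0.13, and -0.44 with a pseudocount of 1. Class medians with 1 array left out ran from 0.06 to 0.297 for core histones, from -0.07 to 0.05 for remodelling and from -0.24 to -0.05 for deacetylation. Signs turned for CHR34 (-0.0371) and HDA15 (0.0093) with array weights, and for CHR24 (0.0092) with quantile normalization; the cause was not tested. With 1 array left out, values ran from -0.16 to 0.0458 for CHC1, -0.0755 to 0.0485 for CHR24, -0.17 to 0.18 for CHR34, -0.0774 to 0.12 for CHR17, -0.0257 to 0.16 for CHB3 and -0.0685 to 0.0394 for HDA15. Where a gene lies at or below the controls, the signal over background limits any statement on it.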
